A study of Mus musculus with 3 samples.

Results

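Iron uptake, storage and export were examined through 9 genes of 22911 that could be named on the arrays: *Tfrc*, *Steap3*, *Slc11a2*, *Slc39a14*, *Fth1*, *Ftl1*, *Slc40a1*, *Ireb2* and *Aco1*. The genes were taken as a list of symbols, and every probe whose transcript accession maps to one of them was kept, which gave 15 probes. Gene expression was measured in Colon26, a colon adenocarcinoma line from a female BALB/c mouse, and in its sublines LuM1, labelled high-metastatic, and NM11, labelled low-metastatic in one field and non-metastatic in the series design. Each line was grown for 3 days in the same serum-supplemented medium with antibiotics and no further treatment, and 0.1 µg of its total RNA was labelled with Cy3 and hybridized to 1 single-colour array. With 1 array per line there is no replicate, so no test was run and no difference has a check against the spread between cultures. Each line also stands for itself alone, since nothing in the labels gives a second isolate of either subline.

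Iron enters most cells bound to transferrin, which the transferrin receptor carries into endosomes, where a STEAP reductase reduces it and a divalent metal transporter moves it into the cytosol. Iron that is not used at once is stored inside ferritin, a shell of heavy and light chains, and leaves the cell through ferroportin. Control is exerted by the iron regulatory proteins, which bind stem-loops called iron-responsive elements in the mRNAs of several of these genes when iron is scarce. That binding stabilizes the transferrin receptor mRNA and blocks translation of the ferritin mRNAs, so ferritin protein can change while its mRNA does not. Tumor cells are known for a high demand for iron.

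Signals are given as the scanner software's background-corrected brightness after each array was scaled to a common 75th percentile of 585.1, in arbitrary units, with the software's own error of each spot after the ± sign. A ratio is called past the threshold at 2-fold, which is 1 on the log2 scale, and is read against the share of all named genes past the same threshold. A probe that the software did not place well above background has only a bound. Levels of different genes are not set against each other, because probes differ in brightness for the same amount of RNA. The arrays shared 1 slide and 1 scan, and 49.9% to 53.8% of their 56605 probes were well above background.

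The labelled tissue was checked first against its defining genes. Of 10 markers of colon epithelium, 4 were well above background in Colon26 (*Krt8*, *Krt20*, *Cdx2* and *Lgals4*). *Epcam* joined them in LuM1 only, at a dim 28.0 ± 5.18, which is at least 1.06-fold over Colon26. In LuM1 over Colon26, *Krt20* was at 0.0837-fold, *Lgals4* at 0.362-fold and *Cdx2* at 0.523-fold, whereas *Krt8* was at 3.72-fold. *Cdh1*, *Krt18*, *Krt19*, *Vil1* and *Muc2* were not well above background in any line. All 8 mesenchymal markers were well above background in every line, though *Col1a2* read only 49.6 in LuM1, 0.000828-fold of Colon26. Of 8 macrophage markers, the defining genes *Ptprc* and *Adgre1* were not well above background in any line, but 4 in Colon26 and NM11 and 5 in LuM1 were. These are cultured lines, and whether cells of another type were present was not tested. Fewer cells of a type and less RNA per cell cannot be told apart in such samples.

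**Figure D1:**
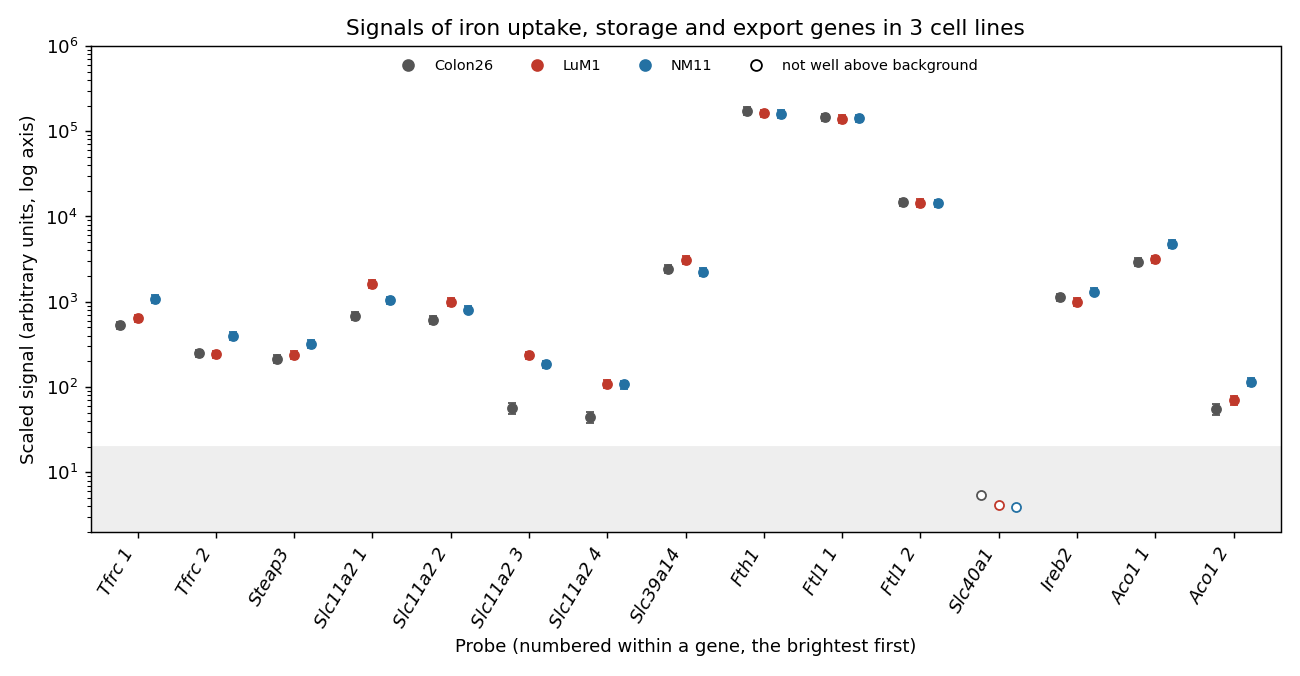
Scaled signal (log axis, arbitrary units) of the 15 probes of the 9 iron genes, in Colon26 (grey), LuM1 (red) and NM11 (blue), 1 array each; bars are the scanner software's error, open circles mark probes not well above background, and the grey zone ends at the lowest floor of the 3 arrays, 19.6. The 4 *Slc11a2* probes have their lowest point in Colon26, the points of each ferritin probe lie level in this scaling, and the *Slc40a1* points, where the software writes about the size of its error in place of a signal, lie inside the grey zone.

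Of the 9 genes, 8 were well above background in all lines, and *Slc40a1* was not in any. In LuM1 against Colon26, 1 of the 8 was at least 2-fold higher, *Slc11a2*, and 0 were lower, where 13.1% of all named genes with a ratio were higher and 11.8% lower. In NM11 against Colon26, 1 was higher, *Tfrc*, and 0 were lower, where 8.33% of all named genes were higher and 7.9% lower. In LuM1 against NM11, 0 were higher and 0 lower, where 11.1% of all named genes were higher and 8.5% lower. Counts of 1 or 0 in 8 genes do not stand apart from these shares.

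The median log2 ratio of the 8 genes was 0.13 in LuM1 over Colon26, against -0.13 over all named genes. It was 0.41 in NM11 over Colon26, against -0.02 over all named genes. In LuM1 over NM11 it was -0.22, against -0.11. The 3 comparisons share arrays, so these medians are not independent of each other. In the same order, 3, 5 and 6 of the 8 genes differed by more than the scanner error of their ratio. Of all named genes measured on both arrays, 9286 of 12394, 8169 of 12469 and 9339 of 12848 did so. The counts of the 8 genes thus do not stand above those of all genes.

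**Figure D2:**
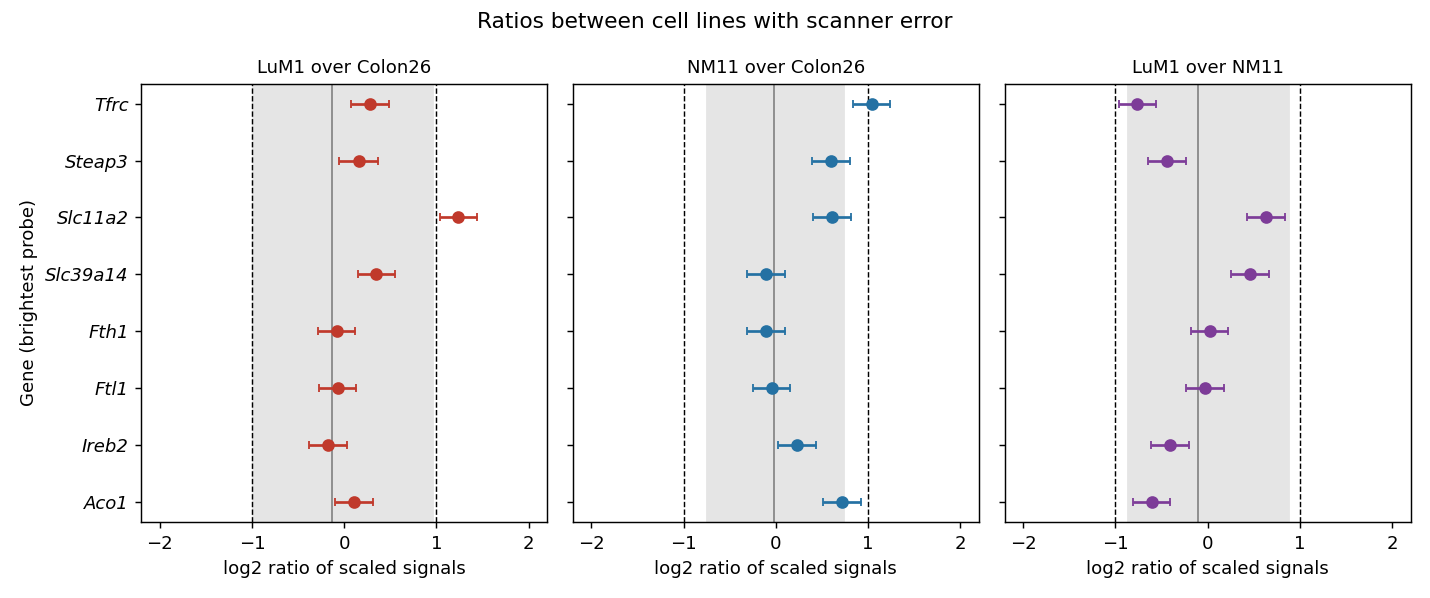
Log2 ratio of scaled signals of the 8 iron genes well above background, in LuM1 over Colon26, NM11 over Colon26 and LuM1 over NM11; bars are the scanner error of the ratio, the grey band runs from the 10th to the 90th percentile of all named genes measured on both arrays, its line is their median, and dashed lines mark 2-fold. *Slc11a2* lies to the right of the band in LuM1 over Colon26 at 1.24, *Tfrc* does so in NM11 over Colon26 at 1.04, and no other point lies outside it.

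*Slc11a2* encodes DMT1, the divalent metal transporter that takes iron across the endosomal membrane and, in the gut, across the apical membrane. Its brightest probe read 688 ± 69.0 in Colon26, 1622 ± 162 in LuM1 and 1046 ± 105 in NM11. LuM1 was the highest line and Colon26 the lowest, with NM11 between them, and no error interval touched the next. The ratio of LuM1 over Colon26 was 2.36-fold (log2 1.24, scanner error 0.20). The ratio of NM11 over Colon26 was 1.52-fold, and that of LuM1 over NM11 was 1.55-fold.

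The other 3 probes of *Slc11a2* gave the same lowest line with ratios of other sizes. The probe A_52_P196476, which alone among them carries the accession of another *Slc11a2* transcript, read 56.4 ± 7.84 in Colon26, 235 ± 23.9 in LuM1 and 185 ± 18.9 in NM11. The probe A_52_P254298 read 44.5 ± 7.13 in Colon26, 109 ± 11.7 in LuM1 and 108 ± 11.49 in NM11. The probe A_55_P2830119 read 613 ± 61.6 in Colon26, 997 ± 99.8 in LuM1 and 811 ± 81.2 in NM11. Colon26 was thus the lowest line for 4 of 4 probes, and the gap exceeded the scanner error for all 4 in both sublines.

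For LuM1 over Colon26 the *Slc11a2* probes ranged from 1.63-fold to 4.17-fold, and 3 of 4 were past 2-fold. For NM11 over Colon26 they ranged from 1.32-fold to 3.28-fold, and 2 of 4 were past 2-fold. The mean log2 ratio over the 4 probes was 1.32 in LuM1 and 0.999 in NM11. Between the sublines the probes disagreed in size: all 4 were higher in LuM1, but A_52_P254298 gave only 1.01-fold, within its error, and the mean log2 ratio was 0.32. The probes of 1 gene share a labelled sample and are not replicates of a line.

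**Figure D3:**
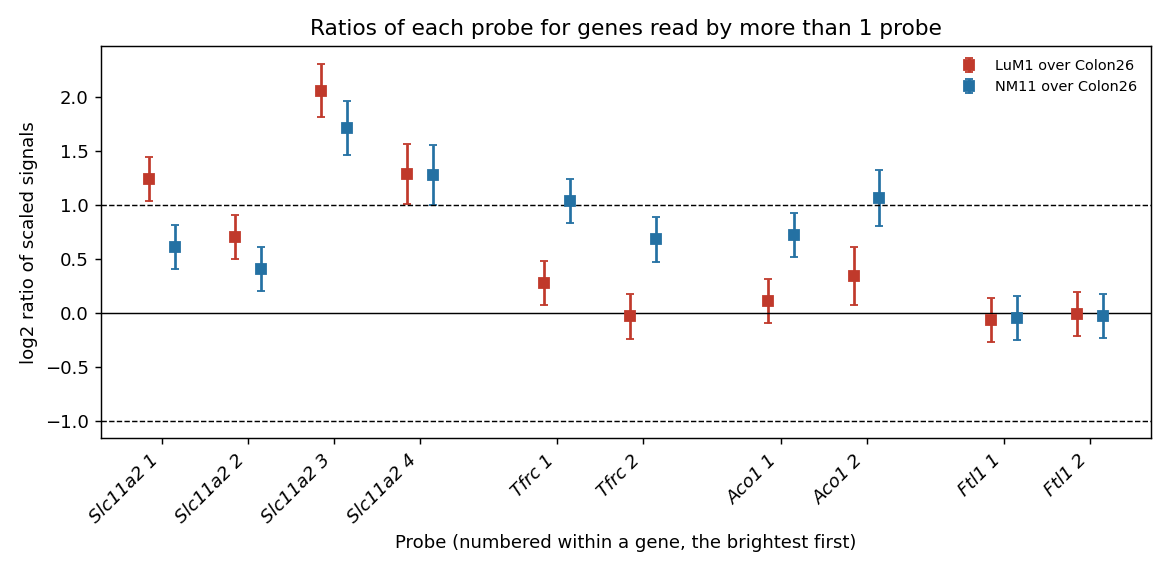
Log2 ratio of scaled signals over Colon26, in LuM1 (red) and NM11 (blue), of each probe of the 4 genes read by more than 1 probe; bars are the scanner error of the ratio and dashed lines mark 2-fold. All *Slc11a2* probes lie above 0 in both sublines, and the *Ftl1* probes lie at 0 within their error. The *Tfrc* and *Aco1* probes lie higher in NM11 than in LuM1, where the dimmer *Tfrc* probe lies just below 0.

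*Tfrc*, the transferrin receptor, had another order of lines. Its brighter probe read 527 ± 53.0 in Colon26, 639 ± 64.0 in LuM1 and 1082 ± 108 in NM11. Its dimmer probe read 248 ± 25.5 in Colon26, 243 ± 24.6 in LuM1 and 398 ± 40.0 in NM11. NM11 was the highest line for both probes, whereas the order of LuM1 and Colon26 turned between them. The ratio of NM11 over Colon26 was 2.05-fold (log2 1.04, scanner error 0.20) for the brighter probe and 1.60-fold for the dimmer one, so the call at 2-fold rested on 1 of 2 probes and lay within the scanner error of the threshold. LuM1 over Colon26 was 1.21-fold and 0.977-fold for these probes. LuM1 over NM11 was 0.590-fold and 0.610-fold.

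*Steap3*, the endosomal reductase that turns ferric into ferrous iron, read 214 ± 22.1 in Colon26, 239 ± 24.3 in LuM1 and 324 ± 32.6 in NM11. NM11 was again the highest line, at 1.51-fold over Colon26, and the gap between LuM1 and Colon26, 1.12-fold, lay within the scanner error. *Slc39a14*, or ZIP14, a transporter of zinc, manganese and iron not bound to transferrin, read 2430 ± 243 in Colon26, 3098 ± 310 in LuM1 and 2257 ± 226 in NM11. LuM1 was its highest line, at 1.27-fold over Colon26 and 1.37-fold over NM11, both beyond the scanner error, and Colon26 and NM11 differed by less than that error.

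With each array scaled to its 75th percentile, the ferritin mRNAs were level. *Fth1*, the heavy chain with the ferroxidase site, read 172820 ± 17282 in Colon26, 163124 ± 16312 in LuM1 and 160646 ± 16065 in NM11. *Ftl1*, the light chain, read 146014 ± 14601 in Colon26, 138980 ± 13898 in LuM1 and 141462 ± 14146 in NM11 by its brighter probe. Its dimmer probe read 14650 ± 1465 in Colon26, 14502 ± 1450 in LuM1 and 14330 ± 1433 in NM11. The error intervals overlap for every pair of lines, and the ratios between lines ran from 0.930-fold to 1.02-fold for *Fth1*. That level course depended on the scaling: scaled to *Hprt*, *Fth1* was at -0.59 and *Ftl1* at -0.53 on the log2 scale in NM11 over Colon26, and in the authors' values they were at 0.36 and 0.38 in LuM1 over Colon26. No spot on the arrays was saturated, so the ceiling of the scanner was not reached. Ferritin has processed pseudogenes of near-identical sequence, and whether these probes read them too was not tested.

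In the 75th percentile scaling *Fth1* spanned 1.08-fold from lowest to highest and *Ftl1* spanned 1.05-fold. Of 12245 named genes well above background on all arrays, 2.12% spanned less than *Fth1* and 1.07% spanned less than *Ftl1*, and the median gene spanned 1.58-fold. The other measured iron genes were spread more widely over that distribution, from *Ireb2*, with 25.6% of genes spanning less, up to *Slc11a2*. *Slc11a2* spanned 2.36-fold, with 81.7% of genes spanning less, and *Tfrc* spanned 2.05-fold, with 74.6% spanning less. *Aco1* spanned 1.64-fold, *Steap3* 1.51-fold, *Slc39a14* 1.37-fold and *Ireb2* 1.32-fold.

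*Slc40a1* encodes ferroportin, the only known iron exporter of mammalian cells. Its single probe, A_51_P389988, was neither well above nor significantly above background on any array. The background-subtracted brightness before scaling was 1.40 in Colon26, -3.45 in LuM1 and 0.336 in NM11, where the lowest scaled signal of any probe well above background was 26.4, 20.1 and 19.6. No ratio was taken, and ferroportin mRNA was not detectable at this brightness, which does not show that it is absent.

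*Ireb2* and *Aco1* encode the iron regulatory proteins IRP2 and IRP1. IRP2 is controlled mainly by its breakdown when iron is plentiful, and IRP1 is the cytosolic aconitase, which binds RNA once it loses its iron-sulfur cluster. *Ireb2* read 1126 ± 113 in Colon26, 997 ± 99.8 in LuM1 and 1320 ± 132 in NM11. *Aco1* read 2926 ± 293 in Colon26, 3157 ± 316 in LuM1 and 4810 ± 481 in NM11 by its brighter probe, and 55.3 ± 8.02, 70.0 ± 8.31 and 116 ± 12.3 by its dimmer one. NM11 was the highest line for both genes and for both *Aco1* probes. NM11 over Colon26 was 1.17-fold for *Ireb2*, and 1.64-fold and 2.09-fold for the *Aco1* probes. LuM1 and Colon26 differed by less than the scanner error for *Ireb2* and for the brighter *Aco1* probe.

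NM11 was therefore the highest line for *Tfrc*, *Steap3*, *Ireb2* and *Aco1*, and LuM1 for *Slc11a2* and *Slc39a14*. Under each scaling tried this held for *Tfrc*, *Aco1*, *Slc11a2* and *Slc39a14*, whereas LuM1 was the highest line for *Steap3* when scaled to *Hprt*. *Ireb2* was highest in Colon26 when scaled to *Hprt* or to the E1A spike-ins, and highest in LuM1 in the authors' values. The order of the genes by their ratio within a comparison is not touched by a factor that multiplies a whole array. In NM11 over Colon26 that order by the brightest probe ran from *Tfrc* through *Aco1*, *Slc11a2*, *Steap3*, *Ireb2*, *Ftl1* and *Fth1* to *Slc39a14*. It depended on the choice of probe: with the mean over probes *Slc11a2* came first, at a log2 ratio of 0.999, ahead of *Aco1* at 0.89 and *Tfrc* at 0.86. The heights themselves do move with the scaling: scaled to *Hprt*, all NM11 over Colon26 ratios fell by 0.49 on the log2 scale, which left *Tfrc* at 1.46-fold, *Aco1* at 1.17-fold, *Slc11a2* and *Steap3* at 1.08-fold, and put *Ireb2* below 1. The 3 named genes with the pattern over the arrays most like that of *Slc11a2*, by Euclidean distance of centred log2 signals, were *Coro1c*, *Ccr8* and *Wdr45*, at 0.018, 0.025 and 0.027. Over 3 points such likeness is a description only.

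The starts of these genes are shown for the ferritin chains, whose mRNAs were level in the 75th percentile scaling, and for *Tfrc*, whose order of lines differed from that of *Slc11a2*. Of the 9 genes, 6 had windows in a RefSeq table of the mouse assembly GRCm38.p6, 11 windows in all. The CCAAT box, searched as CCAAT on both strands, is a common element of promoters and was found in 33.8% of the 32851 windows of 250 bases before a start. It was present in 4 of the 11 windows, 1 each of *Ftl1*, *Fth1*, *Tfrc* and *Steap3*. The windows of *Fth1* (chr19:9982396-9982645, plus strand) and *Ftl1* (chr7:45459887-45460136, minus strand) are printed 5′ to 3′ as read on the gene's own strand, with each match in capitals, ATTGG where it lies on the opposite strand.
Fth1: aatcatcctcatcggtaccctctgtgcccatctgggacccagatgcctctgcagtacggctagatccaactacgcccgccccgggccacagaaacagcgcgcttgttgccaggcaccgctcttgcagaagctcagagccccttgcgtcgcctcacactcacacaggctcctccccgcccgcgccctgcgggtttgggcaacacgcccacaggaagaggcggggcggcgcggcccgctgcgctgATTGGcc
Ftl1: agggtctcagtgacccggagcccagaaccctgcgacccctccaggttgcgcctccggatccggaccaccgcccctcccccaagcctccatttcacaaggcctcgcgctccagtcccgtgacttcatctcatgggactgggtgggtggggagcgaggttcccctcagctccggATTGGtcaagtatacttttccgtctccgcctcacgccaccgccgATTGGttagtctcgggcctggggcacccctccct
The matches lay 7 bases before the *Fth1* start, and 78 and 34 bases before the *Ftl1* start.

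The core of the element bound by hypoxia-inducible factors was searched as ACGTG on both strands and was found in 16.6% of all windows. It was present in 1 of the 11 windows, that of the downstream *Tfrc* start, 228 bases before it, in the stretch chr16:32608882-32608910 (plus strand, match in capitals).
Tfrc: ctcggtaggtgtACGTGcggaaggaagtg
A match of this length is a description of letters and says nothing of binding in these cells.

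The other genes of iron and heme handling were taken from lists of 73 genes beside the 9. In LuM1 over Colon26, 11 of the 59 with a ratio lay 2-fold or more above and 5 as far below, beside 13.1% and 11.8% of all named genes. In NM11 over Colon26, 5 of 57 were higher and 1 was lower, beside 8.33% and 7.9%. In LuM1 over NM11, 8 of 59 were higher and 4 lower, beside 11.1% and 8.5%. None of these counts was tested, and the lists were chosen with earlier results of these data known. The 11 higher in LuM1 over Colon26 lie above their share over all genes, and the other counts lie near or under theirs. The median log2 ratio with bounded genes at their bound was 0.05 in LuM1 over Colon26, against -0.10 over all named genes, and -0.00 in NM11 over Colon26, against -0.01.

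**Figure D4:**
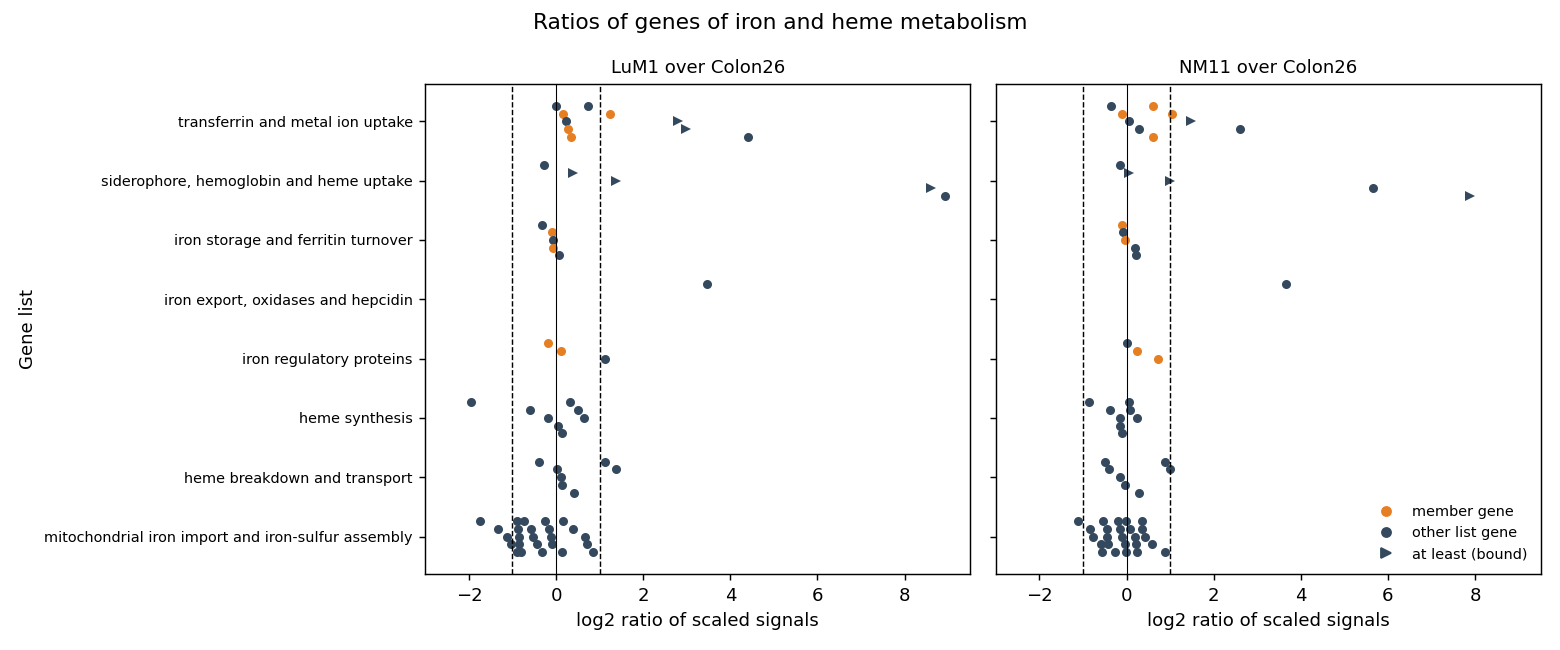
Log2 ratio of scaled signals of every gene with a ratio in 8 lists of iron and heme metabolism (the list of mRNAs with an iron-responsive element is left out), in LuM1 over Colon26 and NM11 over Colon26; orange points are genes among the 9, dark points other list genes, triangles bounds of at least the value shown, and dashed lines mark 2-fold. The points furthest to the right belong to the list of siderophore, hemoglobin and heme uptake, and the points of the iron-sulfur list lie mostly to the left of 0 in LuM1.

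Of 14 genes of transferrin and metal ion uptake, 10 had a ratio in LuM1 over Colon26, 4 of them at least 2-fold higher and 0 lower, where 13.1% and 11.8% of all named genes were so; *Slc11a2* is 1 of the 4. *Hfe*, a partner of transferrin receptors in iron sensing, read 66.4 in Colon26, 1398 in LuM1 and 402 in NM11, which is 21.1-fold over Colon26 in LuM1 and 6.06-fold in NM11. *Slc39a8*, or ZIP8, a relative of ZIP14, was not well above background in Colon26 and read 183 in LuM1 and 73.8 in NM11, at least 6.92-fold and at least 2.79-fold higher. With normexp background correction these bounds became at least 2.89-fold and at least 1.66-fold, and the *Hfe* ratios 10.9-fold and 3.48-fold. A further *Slc39a8* probe was not well above background in any line.

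*Slc11a1*, a relative of *Slc11a2* known from the phagosomes of macrophages, was well above background in LuM1 only, at 210. It lay at least 7.94-fold over Colon26 and at least 10.7-fold over NM11, or at least 3.50-fold and at least 3.63-fold with normexp. Of the 8 macrophage markers, *Cd68* read 172 in Colon26, 5251 in LuM1 and 299 in NM11, *Cd14* read 1153, 4175 and 988, and *Lyz2* was well above background in LuM1 only. In LuM1 over Colon26, *Csf1r* was at 1.01-fold and *Itgam* at 1.36-fold by its brighter probe, whereas the dimmer *Itgam* probe gave at most 0.317-fold. *Ptprc*, *Adgre1* and *Mrc1* were not well above background in any line. Whether any cells other than those of the line were present was not tested. *Trf*, transferrin itself, was not well above background in any line by either of its 2 probes.

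Iron can also be bound outside the cell by other carriers, and this list held the widest ratios. *Lcn2*, a lipocalin that binds iron-laden siderophores, read 154 in Colon26, 75728 in LuM1 and 7731 in NM11, which is 490-fold over Colon26 in LuM1 and 50.1-fold in NM11. *Hp*, or haptoglobin, which binds free hemoglobin, was not well above background in Colon26 and read 10221 in LuM1 and 6213 in NM11, at least 387-fold and at least 235-fold higher. *Slc22a17*, a reported receptor of lipocalin, read 71.4 in LuM1 and 28.8 in NM11. It was not well above background in Colon26, so that LuM1 lay at least 2.59-fold above that line, or at least 1.36-fold with normexp. Its further probe was not well above background in any line. With normexp the *Hp* bounds became at least 141-fold and at least 83.6-fold. *Lcn2* and *Hp* are also known as acute-phase genes. The fibroblast markers *Dcn*, *Thy1* and *Pdgfra* moved the same way as *Lcn2*, *Hp* and *Hfe*. *Dcn* and *Thy1* were well above background in the sublines only, and *Pdgfra* read 218 in Colon26, 3965 in LuM1 and 1286 in NM11. *Pdgfrb* was level and *Lum* was not well above background in any line. Expression of these markers in a cultured line does not by itself show fibroblasts, and a link to the iron genes was not tested.

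In the storage list, 0 of 5 genes with a ratio were past 2-fold in any comparison, *Fth1* and *Ftl1* among them, a count too small to read against the shares over all genes. *Ncoa4*, the receptor that delivers ferritin to lysosomes, read 3756 in Colon26, 3004 in LuM1 and 3535 in NM11, 0.80-fold and 0.941-fold of Colon26.

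Of the 7 genes of export, oxidases and hepcidin, 6 had no ratio, *Slc40a1* and *Heph* among them. The exception was *Cp*, ceruloplasmin, a copper oxidase that loads exported iron onto transferrin, which read 564 in Colon26, 6210 in LuM1 and 7112 in NM11. Both sublines lay above Colon26, at 11.01-fold in LuM1 and 12.6-fold in NM11, and by this probe they differed from each other by less than the scanner error. A further probe measured in every line gave 7.44-fold and 10.3-fold. The remaining 2 probes were not well above background in Colon26, and gave at least 7.15-fold and 13.8-fold in LuM1 and at least 11.6-fold and 18.7-fold in NM11. These 3 probes put NM11 above LuM1 beyond the scanner error, at 0.614-fold to 0.738-fold for LuM1 over NM11, and the order of the sublines by the brightest probe turned under several scalings. *Heph*, hephaestin, a membrane-bound relative of ceruloplasmin, was not well above background in any line by 3 probes.

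*Fbxl5* encodes the iron-sensing ligase subunit that marks IRP2 for breakdown. It read 3216 in Colon26, 7057 in LuM1 and 3252 in NM11. LuM1 stood above both other lines, at 2.19-fold over Colon26 and 2.17-fold over NM11. The mRNA of IRP2, *Ireb2*, was at 0.885-fold of Colon26 in LuM1, within the scanner error, and its sign turned in the authors' values. That breakdown acts on IRP2 protein, which was not measured. The other *Fbxl5* probe gave 1.63-fold and 1.55-fold, so the direction was shared and the 2-fold call was not.

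Of 9 genes listed as having an mRNA with an iron-responsive element, 7 had a ratio in LuM1 over Colon26. At least 2-fold higher were 2 of them, *Slc11a2* and *Epas1*, with 0 lower, beside 13.1% and 11.8% of all named genes. Whether each probe reads a transcript that carries the element was not tested. *Epas1*, the hypoxia-inducible factor HIF-2α, was well above background in LuM1 only, at 2919. It lay at least 111-fold over Colon26 and at least 149-fold over NM11, or at least 32.6-fold and at least 36.4-fold with normexp. In NM11 over Colon26, *Tfrc* alone of 6 was past 2-fold, beside 8.33% of all named genes.

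Heme synthesis held 8 genes with a ratio. Of these, *Cpox*, coproporphyrinogen oxidase, was at least 2-fold lower in LuM1 over Colon26 and 0 were higher, beside 11.8% and 13.1% of all named genes. *Cpox* read 5582 in Colon26, 1454 in LuM1 and 3068 in NM11, 0.260-fold and 0.550-fold of Colon26. In the list of heme breakdown and transport, 2 of 7 genes passed 2-fold upward in LuM1 over Colon26, beside 13.1% of all named genes. *Hmox1*, heme oxygenase, which frees iron from heme, read 3940 in Colon26, 10266 in LuM1 and 7808 in NM11, 2.61-fold and 1.98-fold over Colon26. *Blvrb*, a biliverdin reductase named here after its values were seen, was at 2.18-fold in LuM1 and 1.84-fold in NM11.

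Mitochondrial iron import and iron-sulfur assembly formed the longest list, with all 25 genes measured in every line. In LuM1 over Colon26, 4 of 25 lay past 2-fold below and 0 past 2-fold above, where 11.8% and 13.1% of all named genes did. In the same comparison 19 of the 25 (76.0%) lay below 0, as did 58.3% of all named genes, with a median log2 ratio of -0.52 against -0.13 over all named genes. In NM11 over Colon26, 1 was lower and 0 were higher, beside 7.9% and 8.33% of all named genes, and the median was -0.10 against -0.02. *Glrx5*, a carrier of iron-sulfur clusters in mitochondria, read 10173 in Colon26, 4055 in LuM1 and 9479 in NM11, 0.399-fold of Colon26 in LuM1 and 0.932-fold in NM11. *Hspa9*, the mitochondrial chaperone of that assembly, was named after its values were seen and was at 0.297-fold of Colon26 in LuM1 and 0.583-fold in NM11. The remaining ones past 2-fold in LuM1 were *Fdxr* at 0.456-fold and *Nubp1* at 0.489-fold, also named after their values were seen. In the authors' own scaling the list's median in LuM1 over Colon26 was -0.07 and 13 of 25 lay below 0, while that scaling raised the median of all genes by 0.45 on the log2 scale. Because it multiplies a whole array by 1 factor, it moved the list and all other genes alike. The place of the list relative to all genes was therefore the same in both scalings.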

How the data were processed

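The 9 genes and the gene lists were chosen with earlier results of these data known. The authors deposited intensity values for each spot of 3 single-colour SurePrint G3 arrays, which Agilent Feature Extraction 11.5.1.1 had background-subtracted and detrended, with flags of 0 or 1 for outliers, saturation and signal above background, and a table of intensity values multiplied by 1 factor per array (0.654 for Colon26, 0.829 for LuM1, 0.706 for NM11). What these factors rest on is not given in the sources used here.

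Control spots and outlier spots (137, 74 and 99 per array) were dropped, and signals were brought to a common 75th percentile. Probes were named through RefSeq accessions of GRCm38.p6 (32994 of 56605, 58.3%). The array design was built on another assembly, so no probe positions are given. A gene was represented by its probe with the highest mean log2 signal. Scanner error was close to 10% of the signal for bright probes and a larger share of it for dim ones, and was carried to ratios. A dim probe was set to the higher of its signal and the array's floor, and its ratio written as at least so many-fold. With 1 array per line no test was possible, and precision is limited by the number of arrays. Ratios were checked on simulated data.

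Genes named were the 9, *Fbxl5*, *Ncoa4*, *Cp*, *Heph*, *Hmox1* and *Trf*, and list genes at least 2-fold different in LuM1 against both other lines or in both sublines against Colon26. Others are marked as named after their values were seen. Alternatives were no scaling, scaling to the median probe, *Hprt* or E1A spike-ins, quantile normalization, normexp (offset 50, on median brightness, which the files hold), the authors' values, a looser or no filter on dim probes, other choices of probe, and a 4-fold threshold. Python 3.11.15, numpy 2.4.6, pandas 2.3.3, R 4.3.3 and limma 3.58.1 were used.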

Additional observations from a re-analysis of the deposited data

How the results depend on the processing

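Of 24 ratios of the 8 measured genes, recomputed under 11 alternatives, 210 of 264 values moved by less than the scanner error, 54 moved by more, and 16 ratios kept their sign throughout. *Slc11a2* in LuM1 over Colon26 ran from 2.11-fold with normexp to 3.22-fold in the authors' values, and was past 2-fold in each of these alternatives, while a 4-fold threshold left 0 genes. *Tfrc* in NM11 over Colon26 lay at the threshold: 0 genes were at least 2-fold higher with no scaling, scaled to *Hprt* or to the E1A spike-ins, with normexp, with the mean over probes, or at 4-fold. In LuM1 over NM11, 2 genes (*Slc11a2* and *Slc39a14*) were at least 2-fold higher when scaled to *Hprt* and 1 (*Slc11a2*) in the authors' values. These settings also raised the median of all named genes in that comparison, by 0.59 and 0.41 on the log2 scale. The shares of all genes in the main scaling therefore cannot be set beside these counts. The cause of these shifts beyond the changed factor was not tested. The sign turned in at least 1 alternative for *Fth1* in LuM1 over Colon26, for *Ftl1* and *Ireb2* in all 3 comparisons and for *Steap3* in LuM1 over NM11. Relative to the main scaling, the median of all named genes moved by 0.45, 0.03 and 0.41 on the log2 scale in the authors' values (LuM1 over Colon26, NM11 over Colon26, LuM1 over NM11), by 0.10, -0.49 and 0.59 scaled to *Hprt*, by 0.00, -0.33 and 0.33 scaled to E1A, and by 0.11, -0.08 and 0.18 with no scaling. Of 34 ratios of other list genes past 2-fold, 21 were past it in every alternative at that threshold and 13 fell under it in at least 1. Normexp left *Slc22a17* in LuM1 at 1.36-fold over NM11 and at least 1.36-fold over Colon26. *Slc39a8* was then at least 1.66-fold higher in NM11 over Colon26 and at 1.74-fold in LuM1 over NM11. Scaling to *Hprt* left the former *Slc39a8* bound at 1.99-fold. The mean over probes left *Fbxl5* in LuM1 at 1.89-fold over Colon26 and 1.83-fold over NM11. In the authors' values *Fdxr*, *Glrx5* and *Nubp1* in LuM1 over Colon26 were at 0.621-fold, 0.543-fold and 0.666-fold, and *Nubp1* also missed 2-fold under 4 others. In LuM1 over NM11, *Ciapin1*, *Cpox*, *Fdx1* and *Glrx5* missed it when scaled to *Hprt* or E1A and in the authors' values. Of these, *Ciapin1* and *Fdx1* were named after their values were seen. No paired analysis was possible because each line has 1 array, and for the same reason no array could be left out. Signal over background limits *Slc40a1*, *Trf* and *Heph*, for which no level can be given.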
